A study of Mus musculus with 11 samples.

Results

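The cytosolic ribosomal protein genes and the processed pseudogene Rps2-ps13 were followed across 11 RNA libraries of the mouse embryonic forebrain. Members were taken by symbol, as genes named Rps or Rpl followed by a number or by a, p0, p1 or p2, with Rps2-ps13 added by name. The rule found 83 genes of 46078 in the count files. By symbol they were 32 genes of the small ribosomal subunit, 50 genes of the large subunit and Rps2-ps13. Rpl6l, counted here with the large subunit, is itself annotated as a processed pseudogene. The symbol rule uses names only, whereas Rps2-ps13 lies outside it and was added with earlier results of these data known. Rps3a1, Fau and Rack1 also encode ribosomal proteins or associated factors, but their names do not follow the rule, and they were kept in a list of their own.

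A ribosome is built from ribosomal RNA and a set of proteins that are mostly present in a single copy each, so cells make the mRNAs of these proteins in parallel. Most of these mRNAs begin with a run of pyrimidines, the TOP motif, through which mTOR signalling sets how strongly they are translated. Dividing progenitors of the cortex build many ribosomes, and postmitotic neurons keep a large pool of ribosomal protein mRNA, part of it in their processes. Ribosomal protein genes have also left many processed pseudogenes, which are intron-less copies of their mRNAs inserted elsewhere in the genome. A short read from such a gene can match the copy as well as the gene.

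All embryos were of the CD-1 strain. Sorted cells came from wild-type brains electroporated at E12.5 with pCIG2, a GFP plasmid, or with pCIG2-L3mbtl3, and at E15.5 the cells carrying GFP were collected by sorting (3 GFP controls, GFP 1 to GFP 3, and 3 gain libraries, gain 1 to gain 3). Tissue was microdissected dorsal telencephalon of E12.5 embryos, with no sort and no plasmid. It gave 1 wild-type library (WT 1), 2 libraries labelled L3mbtl3 +/- (het 1 and het 2) and 2 labelled L3mbtl3 -/- (KO 1 and KO 2). GFP marks only cells that took up the plasmid and their progeny, and tissue holds every cell type of the dissected piece. The gain comparison set gain against GFP libraries. The loss comparison set the libraries labelled knockout against the 3 other E12.5 libraries, pooled here as controls. A further comparison set the GFP controls against those same 3 E12.5 controls. In it stage, sorting, plasmid, electroporation and the controls' genotype differ together and cannot be told apart. It shares its samples with both other comparisons.

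Library totals ran from 16527551 to 26658718 counts. L3mbtl3 stood at 46.4 to 52.9 CPM (counts scaled to a library total of 1000000) with the GFP plasmid alone and at 824 to 1410 in the gain libraries. In the E12.5 controls it stood at 61.5 to 64.7 CPM, and in the libraries labelled knockout at 74.5 and 77.2, a log2 difference of 0.27 (SE 0.0539, adjusted p = 0.0128, edgeR), so the count of the whole gene was not lower under that label. Which exons the allele lacks is not given in the sources used here. The 8 markers of dorsal telencephalon were detected in every group, with sums of 1691 to 2248 CPM. The 10 neuron markers summed to 7515 to 10700 CPM in sorted cells and to 2050 to 2750 in E12.5 tissue, and the 10 progenitor markers to 657 to 2441 and to 5092 to 5292. Markers of endothelium, red cells, choroid plexus and meninges were far higher in tissue (meninges, 8 markers, 1810 to 2307 CPM) than in sorted cells (4.02 to 64.5 CPM). In bulk samples, fewer cells of a type and less RNA per cell cannot be told apart.

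The members took 1.54% to 2.36% of all counts. Their share was 1.55%, 1.81% and 2.09% in GFP 1, GFP 2 and GFP 3, and 1.54%, 1.68% and 1.66% in gain 1, gain 2 and gain 3. It was 2.36% in WT 1, 2.32% and 2.31% in het 1 and het 2, and 2.21% and 2.30% in KO 1 and KO 2. Every E12.5 library was thus above every sorted library, and the 3 GFP controls were spread more widely than the 5 E12.5 libraries. Neuron markers were lowest and progenitor markers highest in GFP 1 (7515 and 2441 CPM) and the reverse in GFP 3 (10700 and 657 CPM), and ventral telencephalon markers summed, in GFP 1, GFP 2 and GFP 3, to 855, 278 and 23.4 CPM. The part of these cell types in the share was not tested. Large-subunit genes held more counts than small-subunit genes in all 11 libraries, by a ratio of 1.28 to 1.33 in sorted cells and of 1.35 to 1.39 in E12.5 tissue.

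**Figure D1:**
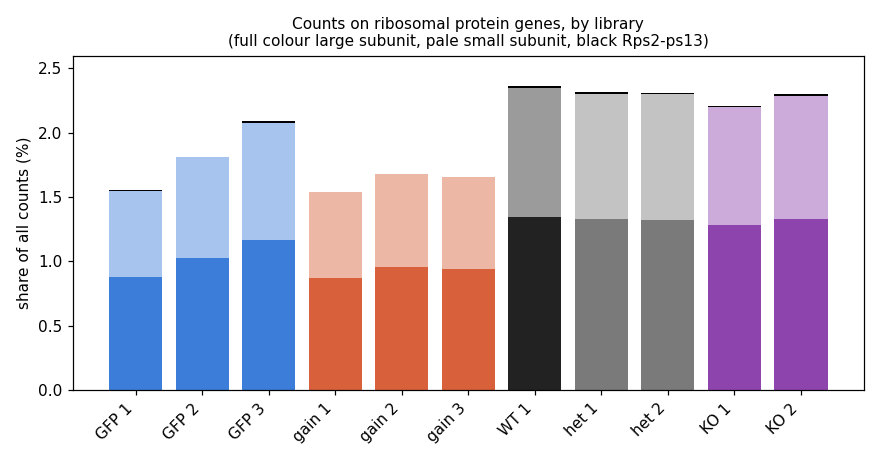
Share of all counts, in percent, on large-subunit genes (full colour), small-subunit genes (pale) and Rps2-ps13 (black) in each of the 11 libraries. The 5 E12.5 libraries stand at 2.21% to 2.36% and the 6 sorted libraries at 1.54% to 2.09%.

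Rps2 encodes a small-subunit protein near the mRNA entry region. Its processed copy Rps2-ps13 (ENSMUSG00000081684) is a single block of 882 bases on the X chromosome, GRCm38 chrX:52898588-52899469, plus strand. End to end the copy differed from an Rps2 transcript at 7 of 882 bases (99.21% identity), all within the coding part, in the GENCODE transcripts of that build. The stretches below, from the coding part of Rps2 at chr17:24720300-24720359 and from the copy at chrX:52898612-52898671, both on the plus strand, are shown because 2 of these differences fall within them. Capitals mark the differing bases.
Rps2: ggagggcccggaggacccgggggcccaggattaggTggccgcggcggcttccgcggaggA
Rps2-ps13: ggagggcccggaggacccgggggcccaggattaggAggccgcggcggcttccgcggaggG
Of all 75-base windows of the copy, the length of a read, 51.4% were identical to a window of Rps2 and 83.3% to a window of some other gene. For Rps2, 64.4% of windows occurred in another gene's transcript, spread over 50 genes. How reads were divided between these rows, or left out of both, is uncertain, and so is every level given for either row or their sum.

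Rps2-ps13 was read at 39.1, 54.5 and 118 CPM in GFP 1, GFP 2 and GFP 3. In gain 1, gain 2 and gain 3 it had 3, 5 and 2 counts, or 0.147, 0.239 and 0.106 CPM. In E12.5 tissue it lay at 138 to 151 CPM in all 5 libraries, those labelled knockout among them. The row was thus close to empty in the gain libraries and nowhere else. Summed over libraries it held 10 counts in gain and 4262 in GFP, a ratio of 428 scaled to the totals (95% exact interval 233 to 894, counting error only). The fit gave a log2 fold change of -8.70 (SE 0.66, 3 against 3 libraries, adjusted p = 0.0175, edgeR). The row was added with earlier results of these data known, so this p is not independent of that choice. The call was lost with no count filter (adjusted p = 0.159), with a term for embryo sex (0.997) and without GFP 2, gain 1, gain 2 or gain 3 in turn (up to 0.309), while the log2 fold change stayed between -9.06 and -8.05 over those omissions. By sex-linked counts gain 1 and gain 3 were read as female and the GFP controls as male. A library was read as female where Xist counts exceeded those of Eif2s3y, a rule that does not show a pool of both sexes. Gain 2, read as male like the controls, had 5 counts, and the fit with a sex term set it alone against the GFP controls.

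Rps2 itself was read at 58.9, 99.8 and 84.2 CPM in GFP 1, GFP 2 and GFP 3 and at 103, 110 and 120 CPM in gain 1, gain 2 and gain 3, so the groups did not overlap. Of all genes tested, 7.82% were likewise higher without overlap, and Rps2 was the only member. Its log2 fold change of 0.46 (SE 0.19) did not pass (adjusted p = 0.573, edgeR). The sum of gene and copy was 98.0, 154 and 202 CPM in GFP 1, GFP 2 and GFP 3, against 103, 110 and 120 CPM in gain 1, gain 2 and gain 3. In the sum the groups overlapped, because GFP 1 lay below all gain libraries. With copies added to their genes, Rps2 reversed to a log2 fold change of -0.46 (adjusted p = 0.616, edgeR). At E12.5 the sum lay between 238 and 258 CPM.

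Outside Rps2-ps13, which was added with earlier results of these data known, no member was called in the gain comparison. Of 80 members tested, 0 were higher and 1 was lower at an adjusted p under 0.05 (edgeR's quasi-likelihood test, Benjamini-Hochberg adjustment over all genes). Over all 14698 genes tested, 0.0068% were called higher and 0.0068% lower (0.0136% in all), that is L3mbtl3 and Rps2-ps13 in turn. DESeq2 called 46 genes higher and 35 lower, with Rps2-ps13 again the only member. At an unadjusted p under 0.05 there were 4 members (5%), against 8.6% of all genes. The members' median log2 fold change was -0.14, with 70 of 80 below 0, against a median of -0.03 and 54.5% below 0 over all genes. Between the 3 GFP controls, the members' median deviation had an SD of 0.20. Without GFP 3 the members' median was -0.01, with 43 of 80 below 0, and without GFP 1 it was -0.24. Markers of other cell types differed between the same libraries, though none was called: the 12 microglia markers summed to 34.5 to 63.9 CPM in GFP and 13.7 to 21.0 CPM in gain, the 10 endothelial markers to 13.03 to 16.21 and 4.16 to 7.40 CPM, with Emcn at 0 in gain, and the 8 meninges markers to 11.9 to 64.5 and 4.02 to 15.8 CPM. The 10 ventral telencephalon markers summed to 23.4 to 855 CPM in GFP and 25.7 to 234 CPM in gain, with overlap, and all 9 tested had log2 fold changes below 0. So did all 5 erythroid markers tested and 9 of 10 progenitor markers, against 5 of 10 neuron markers and 3 of 8 dorsal telencephalon markers. The part of these cell types in the members' values was not tested.

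Fold change followed gene length in this comparison (Spearman's rho 0.263 across 14698 genes, which are not independent replicates), and members are short, with a median of 1500 counted bases against 3733 for all genes. With a length offset in the fit, the members' median was -0.02, with 50 of 80 below 0.

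Among the members with the smallest p after Rps2-ps13, Rpl26, which lies by the exit of the peptide tunnel, had 22.6, 103 and 98.1 CPM in GFP 1, GFP 2 and GFP 3 and 26.6, 29.1 and 29.6 in gain 1 to gain 3. GFP 1 was therefore with the gain libraries and apart from its own group, and the log2 fold change of -1.39 (SE 0.503) did not pass (adjusted p = 0.551, edgeR). Without GFP 1 it was -1.83 with an adjusted p of 0.0012. Rps14, a protein of the small-subunit platform, was at 730.2, 929.6 and 1354 CPM in GFP 1, GFP 2 and GFP 3 and at 642, 699 and 739 CPM in gain 1 to gain 3 (log2 fold change -0.54, SE 0.235, adjusted p = 0.584, edgeR). Its groups overlapped through GFP 1. Rps16, a small-subunit protein that reaches towards the decoding site, was at 112, 133 and 157 CPM in GFP 1, GFP 2 and GFP 3 and at 103, 108 and 109 CPM in gain 1 to gain 3 (log2 fold change -0.33, SE 0.146, adjusted p = 0.585, edgeR). Here the groups did not overlap, as in 5 of 80 members lower in gain (6.25%), Rps2-ps13 among them, and 8.52% of all genes. Rpl21 is described with its copies below.

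**Figure D2:**
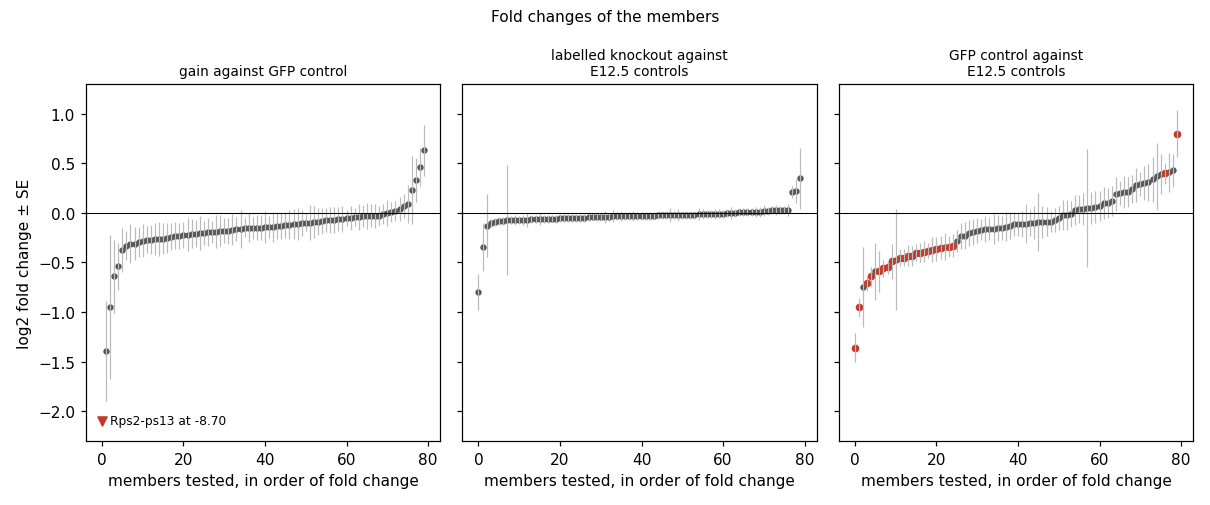
Log2 fold change of each of the 80 members tested, in order, in the 3 comparisons; points are fitted values, bars are SE and red marks an adjusted p under 0.05. Rps2-ps13, at -8.70 in the gain comparison, is drawn as a triangle at the lower edge; in the loss comparison no point is red, and in the comparison of GFP control with E12.5 tissue 21 red points lie below 0 and 2 above.

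In the loss comparison the members hardly moved. Of 80 tested, 0 were called higher and 0 lower (edgeR), against 3.63% and 3.78% of 16361 genes (7.41% in all). At an unadjusted p under 0.05 there were 5 members (6.25%), against 22% of all genes, and DESeq2 called Rplp2 higher and Rps24 lower. The median log2 fold change of the members was -0.03, with 63 of 80 below 0, and that of all genes was 0, with 50.1% below 0. Leaving out KO 1 moved the members' median to 0.01 and leaving out KO 2 moved it to -0.06. In 24 members (30%) both libraries labelled knockout were below all 3 controls, which held for 20.5% of all genes.

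The stalk of the large subunit, which recruits translation factors, is formed by Rplp0, Rplp1 and Rplp2. Rplp2 had 161.8 and 188 CPM in KO 1 and KO 2 and 152, 154 and 151 CPM in WT 1, het 1 and het 2. Both libraries labelled knockout were above the controls, and KO 2 stood further from KO 1 than any control from another; of all genes, 18.1% were likewise higher without overlap, and Rplp2 was the only member. The log2 fold change was 0.21 (SE 0.0595, adjusted p = 0.0669, edgeR). Without KO 2 it was 0.09 (adjusted p = 0.406) and without KO 1 it was 0.32 (0.000625, edgeR). It passed with DESeq2 (0.0366), with a length offset (0.0457) and with no count filter (5.05e-05). Rplp0, the scaffold of the stalk, was at 796 and 817 CPM under the knockout label and at 858, 888 and 863 CPM in WT 1, het 1 and het 2 (log2 fold change -0.10, SE 0.039, adjusted p = 0.147, edgeR). Rplp1 had a log2 fold change of -0.07 (SE 0.0483, adjusted p = 0.442, edgeR). Rps20, a protein of the small-subunit head, differed by -0.09 (SE 0.0384, adjusted p = 0.173), Rps7 by -0.08 (SE 0.0376, adjusted p = 0.227) and Rpl23a, at the tunnel exit, by -0.08 (SE 0.0416, adjusted p = 0.269, all edgeR). The 8 of 10 choroid plexus markers called lower under the knockout label (sums of 309 and 316 CPM against 640 to 732) moved with the same libraries, as did 4 of 10 ventral telencephalon markers called higher (129 and 166 CPM against 84.3 to 115). Their part in these values was not tested.

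Rps2 and Rps2-ps13 did not move with the knockout label. Rps2 was at 104 and 108 CPM in KO 1 and KO 2 and at 101 to 111 CPM in the controls (log2 fold change 0.01, SE 0.0517, adjusted p = 0.964, edgeR). Rps2-ps13 was at 138 and 149 CPM against 138 to 151 CPM (log2 fold change -0.01, SE 0.0517, adjusted p = 0.924, edgeR). In both rows the libraries labelled knockout lay within the range of the controls.

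Rps24, a small-subunit protein, was read at 182 and 193 CPM in KO 1 and KO 2 and at 367, 264 and 353 CPM in WT 1, het 1 and het 2. Its log2 fold change of -0.80 (SE 0.183) did not pass (adjusted p = 0.115, edgeR), and passed without het 1 (-0.93, adjusted p = 1.06e-05, edgeR) and with DESeq2 (0.000839). Its copy Rps24-ps3, also on the X chromosome, had 109 and 110 CPM in KO 1 and KO 2, 55.0 CPM in het 1, and 0.610 and 0.363 CPM in WT 1 and het 2. Gene and copy thus ran opposite to each other. The copy aligned over 402 bases with 4 mismatches (99% identity). The stretches at chr14:24493424-24493483, coding in Rps24, and chrX:79195367-79195426, in the copy, both plus strand, hold 2 of them in capitals.
Rps24: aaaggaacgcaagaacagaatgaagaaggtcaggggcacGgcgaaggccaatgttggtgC
Rps24-ps3: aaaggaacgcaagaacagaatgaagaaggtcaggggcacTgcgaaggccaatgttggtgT
Summed, gene and copy gave 292 and 303 CPM in KO 1 and KO 2 and 368, 319 and 353 CPM in WT 1, het 1 and het 2. Over the 5 E12.5 libraries the coefficient of variation was 31.9% for Rps24 and 9.99% for the sum. With copies added to their genes, the log2 fold change was -0.21 (adjusted p = 0.0493, edgeR). The same opposition was seen in sorted cells, which the plot of gene and copy shows: GFP 1 and gain 1 had 15 and 10 counts of the copy, and GFP 2, GFP 3, gain 2 and gain 3 had 626 to 1359.

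Rpl21, a large-subunit protein, fell into 2 levels that cut across the groups. It was at 25.2, 30.3 and 29.7 CPM in GFP 1, GFP 2 and GFP 3, at 51.4, 26.8 and 53.6 CPM in gain 1, gain 2 and gain 3, at 63.6 CPM in WT 1, at 30.1 and 62.0 CPM in het 1 and het 2, and at 32.6 and 64.4 CPM in KO 1 and KO 2. No library lay between 32.6 and 51.4 CPM. The row of its copy Rpl21-ps8 followed, with 59 to 83 counts in the 5 libraries high for Rpl21 and 2 to 16 counts in the other 6. In the gain comparison the log2 fold change of Rpl21 was 0.63 (SE 0.258, adjusted p = 0.568, edgeR), and -0.08 with a sex term.

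Rpl26 and its copy Gm15772, on chromosome 5, also moved against each other. Gm15772 had 80.6 CPM in GFP 1 and 80.6 to 96.2 CPM in the gain libraries, where Rpl26 was low, and 51.2 and 55.2 CPM in GFP 2 and GFP 3. In E12.5 tissue Rpl26 lay at 123 to 126 CPM and Gm15772 at 63.7 to 69.1 CPM in every library. The copy aligned over 438 bases with 2 mismatches (99.54% identity). Of these, 1 falls in the stretches at chr11:68903179-68903238, coding in Rpl26, and chr5:3236599-3236658, in the copy, both plus strand, marked by a capital.
Rpl26: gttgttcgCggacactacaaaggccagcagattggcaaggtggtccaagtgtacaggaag
Gm15772: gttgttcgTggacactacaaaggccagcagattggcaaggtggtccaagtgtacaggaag
The sum was 103 CPM in GFP 1, 154 and 153 CPM in GFP 2 and GFP 3, and 107 to 125 CPM in the gain libraries. GFP 1 remained with the gain libraries in the sum.

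**Figure D3:**
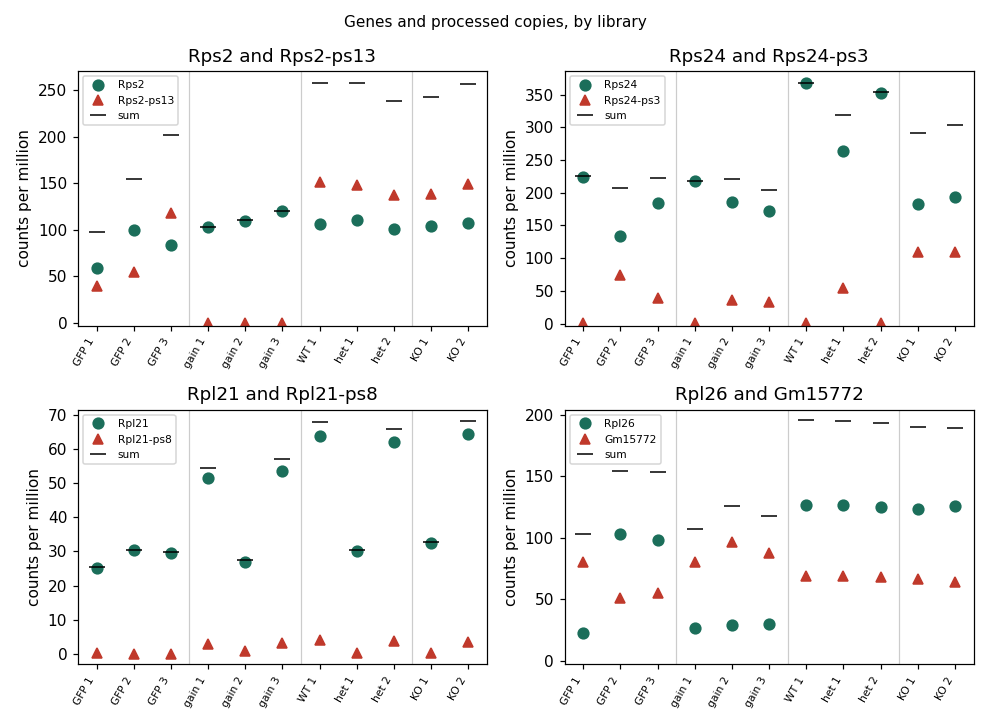
CPM of 4 genes (circles), of a copy of each (triangles) and of their sum (bars), by library. Rps2-ps13 is near 0 in the 3 gain libraries only; Rps24-ps3 is near 0 in GFP 1, gain 1, WT 1 and het 2, where Rps24 is at the highest level of its group; Rpl21 has a low and a high level; Rpl26 is low in GFP 1 and the gain libraries.

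Sequence identical to that of other genes' transcripts was found in most of the family. Windows were matched on either strand and no reads were examined, so read sharing itself was not measured. Partners were not only processed copies: 54.9% of Rpl35 windows occurred in Wdr38 and 44.6% of Rpl5 windows in Fam69a. Among the 83 members, 79 had at least 1 window of 75 bases in common with another gene's transcript, and in 39 members such windows made up 50% or more, with a median of 45.9%. Rps27 was highest at 98.5%, and Rps3 was among those with 0%. Across the 80 members tested, the shared percentage and the level per kilobase had a Spearman's rho of -0.18, a description over genes that share the same libraries. In the E12.5 libraries the median coefficient of variation of a member was 2.88%, and 6 members exceeded 10%. Of 261 pseudogenes named for a member, 65 had no count in any library, and 17 reached 100 counts in at least 1 library.

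Between the GFP controls and the E12.5 controls the family did not move as 1 block. Of 80 members tested, 2 were called higher and 21 lower (edgeR), against 31.1% and 31.3% of 15968 genes, so that 28.8% of members were called against 62.3% of all genes. The members' median log2 fold change was -0.11, with 54 of 80 below 0, and the median of all genes was -0.02, with 51.1% below 0. At an unadjusted p under 0.05 there were 26 members (32.5%), against 66.2% of all genes. All 3 GFP controls lay below all 3 E12.5 controls in 53 members (66.2%) and in 48.5% of genes, on the scale of library totals. Of the 32 small-subunit genes 1 was higher and 13 were lower (median -0.17), and of 47 large-subunit genes 1 was higher and 8 were lower (median -0.09). Scaling by library totals alone put the median of all genes at -0.30 and that of the members at -0.39, with 0 called higher and 45 lower. Relative to all genes the members' median was -0.09 under both scalings and 0.06 without GFP 1. With no count filter and with DESeq2 it was 0.09 and 0.10. These 2 settings took in 26204 genes, whose medians were -0.24 and -0.26, and the members' own median stayed below 0. The sign relative to all genes thus depended on the setting and on the genes taken in. Single libraries moved these counts: without GFP 1, 15 members were called higher and 20 lower, with a median of -0.01, and without GFP 3 there were 3 and 38, with a median of -0.26. Without GFP 2 there were 1 and 13, without het 1 there were 0 and 15, and without het 2 or WT 1 there were 0 and 13.

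**Figure D4:**
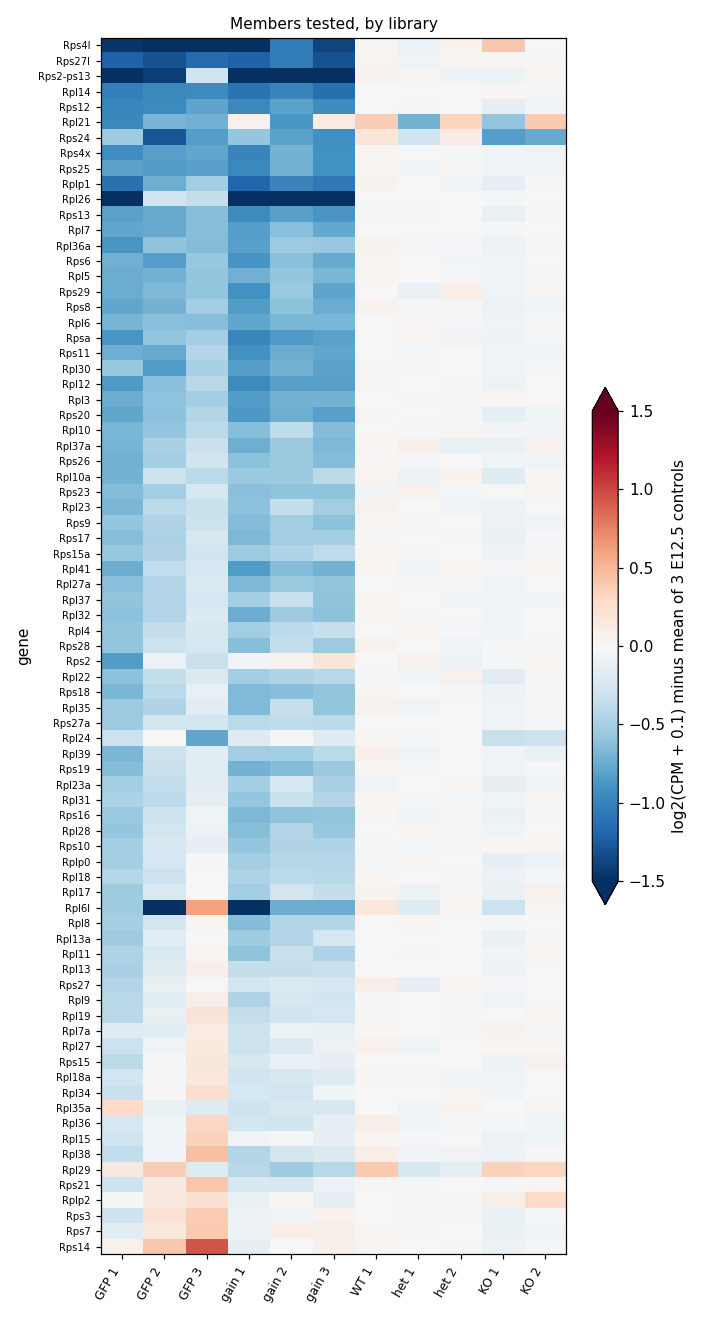
Log2(CPM + 0.1) of 79 of the 80 members tested, minus the mean of the 3 E12.5 controls, by library; rows are ordered by the fold change between GFP and E12.5 controls. Most rows are lower (blue) in the 6 sorted libraries, least so in GFP 3, and near 0 (white) in all E12.5 libraries, with Rps24, Rpl21 and Rpl29 among the exceptions.

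Among called members, the paralogs Rps4l and Rps27l had the lowest log2 fold changes in the fit of all 6 libraries. Rps4l, an autosomal relative of the X-linked Rps4x, was at 4.553, 3.996 and 3.751 CPM in GFP 1, GFP 2 and GFP 3 and at 12.97, 12.00 and 13.25 CPM in WT 1, het 1 and het 2 (log2 fold change -1.36, SE 0.149, adjusted p = 0.000354, edgeR). Rps27l, a relative of Rps27 that is known as a p53 target, was at 24.8, 23.3 and 25.7 CPM against 59.4, 55.2 and 58.3 CPM (-0.95, SE 0.0962, adjusted p = 0.000254, edgeR). Neither overlapped between the groups, and the gain libraries, at 4.41 to 6.13 and at 23.2 to 27.8 CPM, were near the GFP controls. Both held their calls under each omission of a library, with log2 fold changes of -1.42 to -1.33 and of -1.02 to -0.90.

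Rpl14, a large-subunit protein, had 163 to 171 CPM in the GFP controls and 330 to 334 CPM in the E12.5 controls (log2 fold change -0.71, SE 0.0755, adjusted p = 0.000321, edgeR). Its copy Rpl14-ps1, which is named for it, stood at 41.4 to 46.2 and at 84.0 to 88.4 CPM (-0.72, adjusted p = 0.000469, edgeR). Gene and copy fell by about the same amount. Of the 75-base windows of Rpl14, 42.6% occur in this copy, so how reads were divided between them, or left out of both, is uncertain. Rps12, a protein of the small-subunit beak, had 101 to 114 CPM against 198 to 200.3 CPM (-0.64, SE 0.0951, adjusted p = 0.00136), and the X-linked Rps4x had 325 to 362 CPM against 609 to 632 CPM (-0.56, SE 0.0899, adjusted p = 0.00177, both edgeR). All 3 genes held their calls under each omission of a library. Of the windows of Rps12 and Rps4x, 82.5% and 52.9% occur in other genes' transcripts. Rps24 had 133 to 225 CPM against 264 to 367 CPM (-0.59, SE 0.207, adjusted p = 0.0418, edgeR), with the division between gene and copy described above. Its call was lost with a length offset (adjusted p = 0.0558, edgeR) and without GFP 2, het 2 or WT 1 in turn (up to 0.132).

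The members that rose were Rps14 and Rplp2. Rps14 was at 730.2, 929.6 and 1354 CPM in GFP 1, GFP 2 and GFP 3 and at 691 to 719 CPM in the E12.5 controls (log2 fold change 0.80, SE 0.24, adjusted p = 0.0242, edgeR). GFP 3 was the highest of all 11 libraries, and over omissions the log2 fold change ran from 0.49 without GFP 3 to 1.00 without GFP 1, and the call was lost without GFP 2, het 1, het 2 or WT 1 in turn (adjusted p up to 0.0744). Rplp2 was at 150.1, 168 and 179 CPM against 151 to 154 CPM (0.40, SE 0.104, adjusted p = 0.0144, edgeR). GFP 1 lay below the controls on this scale of library totals, while the fitted fold change carries normalization factors of 0.87 to 0.946 in the GFP controls and 1.10 in the E12.5 controls. The call of Rplp2 was lost without het 1, het 2 or WT 1 in turn (adjusted p up to 0.0572). With totals alone both calls were lost (Rps14 0.52, adjusted p = 0.0728; Rplp2 0.12, adjusted p = 0.241, edgeR). Its stalk partners differed from it: Rplp1 fell by 0.49 (SE 0.174, adjusted p = 0.0442) and Rplp0 was at 0.03 (SE 0.149, adjusted p = 0.868, both edgeR). The call of Rplp1 was lost without GFP 2, het 1, het 2 or WT 1 in turn (up to 0.119), and Rplp0 reversed with totals alone (-0.25). In the same fit Rps2 had a log2 fold change of -0.11 (SE 0.197, adjusted p = 0.648) and Rps2-ps13 of -0.75 (SE 0.405, adjusted p = 0.148, both edgeR). Rps2-ps13 depended on the GFP libraries: it was -1.39 and called without GFP 3 (adjusted p = 0.00027), -1.44 under the replicate block, which also drops GFP 3 (0.000285), and -0.45 without GFP 1 (0.241, all edgeR).

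**Figure D5:**
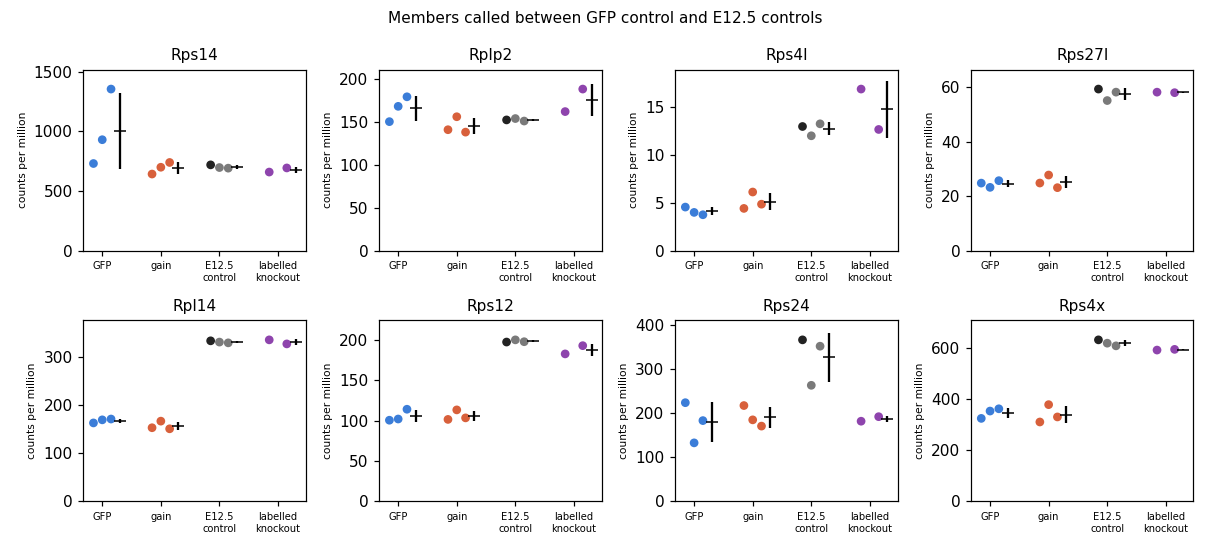
CPM of 8 members called between GFP and E12.5 controls, in each library (points) with the group mean ± SD (bars at the right of each group; n = 3, 3, 3 and 2). The sorted groups lie below the E12.5 groups for Rps4l, Rps27l, Rpl14, Rps12 and Rps4x without overlap; Rps14 is highest in GFP 3.

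Per kilobase of counted sequence, the highest members by the mean of all 11 libraries were Rpl4 at 741, Rplp1 at 726, Rpl8 at 689, Rps15 at 594 and Rpl32 at 562 CPM per kilobase. Counted sequence can be longer than a transcript, so this ranking also carries annotated length. Rps3, at 717 to 1158 CPM, had 4483 counted bases against a transcript of 1908 bases, and stood at 200 CPM per kilobase. The order differed by group. Rplp1 led in the E12.5 controls at 989 ± 34.0 CPM per kilobase (SD, n = 3), ahead of Rpl4 at 857 ± 14.8. In the GFP controls Rps14 had the highest mean at 726 ± 230 CPM per kilobase (SD, n = 3), with Rpl8 at 669 ± 124 and Rpl4 at 655 ± 77.2, which do not differ beyond their spread. Rpl4, a large-subunit protein that lines the peptide tunnel, and Rpl8 share few windows with other genes (8.47% and 4.89%). The lowest of the 80 members tested were Rpl6l at 0.841, Rpl29 at 1.20 and Rpl24 at 1.40 CPM per kilobase. Rpl24 and Rpl29 encode large-subunit proteins, and 80.9% and 56.8% of their windows occur in other genes. Rpl24 was at 0.914 to 1.68 CPM and Rpl29 at 0.622 to 1.27 CPM over the 11 libraries, and how their reads were assigned was not tested. Rpl6l, annotated as a processed pseudogene, ranged most within the GFP controls after Rpl26, with 0.623, 0.274 and 1.49 CPM in GFP 1, GFP 2 and GFP 3. Rpl3l, the striated-muscle paralog of Rpl3, had at most 0.181 CPM, Rpl39l, a paralog known from the testis, at most 0.147 CPM, and Rpl10l, another testis paralog, no count in any library. A count of 0 allows up to 0.113 to 0.182 CPM, by library. None of these 3 passed the count filter in any comparison.

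A pyrimidine tract was looked for around the annotated starts, since TOP motifs begin there. A tract was a C followed by at least 7 letters C or T on the transcribed strand, from 50 bases before to 50 bases after the start, in the RefSeq promoters of GRCm38.p6. It was present in 49 of 60 members with a promoter in the table (81.7%) and in 28.7% of 27025 promoters. Among members tested between GFP and E12.5 controls, it was found in 9 of 12 called lower, in the 1 called higher that had a promoter and in 37 of 44 not called. The stretches of 3 called members are shown because they moved apart: Rpl14 (chr9:120571501-120571530, plus strand) and Rps12 (chr10:23787181-23787210, minus strand) were lower and Rplp2 (chr7:141447637-141447666, plus strand) was higher. Capitals mark the tract, and a match is a description of letters.
Rpl14: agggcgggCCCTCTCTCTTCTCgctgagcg
Rps12: caccgccggCCTTTTCCCCTgccgccgccg
Rplp2: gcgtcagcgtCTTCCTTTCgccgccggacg

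Other genes of ribosome making were read from lists outside the rule. In the gain comparison none of them was called: 0 of 30 genes of rRNA processing and assembly, 0 of 14 of RNA polymerase I, 0 of 21 translation factors and other TOP mRNAs, 0 of 14 of mTOR and TOP control, 0 of 9 of the MYC family, 0 of 12 of the p53 response to ribosomal stress and 0 of 77 mitochondrial ribosomal proteins. Values with the smallest p included Mrpl28 (log2 fold change -0.50, SE 0.14, adjusted p = 0.491) and Mxi1, a MYC antagonist (0.26, SE 0.0839, adjusted p = 0.539, both edgeR). The mitochondrial list had a median of -0.12, close to the -0.14 of the cytosolic members.

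In the loss comparison 4 of 12 p53-response genes were called higher and 0 lower, where 3.63% of all genes were called higher and 3.78% lower. The list did not move as a whole: 5 of 12 log2 fold changes were below 0, the median was 0.08 and the lowest was -0.55. In the same libraries 8 of 10 choroid plexus markers and 2 of 10 neuron markers were called lower and 4 of 10 ventral telencephalon markers higher, and their part in these values was not tested. The p53-response genes called higher included Pmaip1 (0.75, SE 0.124, adjusted p = 0.00425) and Bbc3 (0.55, SE 0.138, adjusted p = 0.0339), which encode the apoptosis proteins Noxa and Puma, and the stress gene Sesn2 (0.45, SE 0.101, adjusted p = 0.0211, all edgeR). Pmaip1 was at a mean of 14.1 CPM under the knockout label and 8.36 CPM in the controls. The calls of Bbc3 and Sesn2 were lost with DESeq2 (adjusted p = 0.146 and 0.0852). KO 2 was the only E12.5 library female by sex-linked counts, so a sex term set KO 1 alone against the controls. With that term both calls were lost, as on leaving out KO 2. Bbc3 was then at 0.44 in both fits, and Sesn2 at 0.47 and 0.46. Both were also lost without WT 1 (adjusted p = 0.103 and 0.0772, edgeR). Bbc3 was lost too without het 1 (0.0682), without het 2 (0.0798) and under a replicate block (0.0627, all edgeR). Sesn2 was lost too without KO 1 (log2 fold change 0.43). Pmaip1 held in each of these. Of assembly genes 1 of 30 rose, Rrs1 (0.36, SE 0.0816, adjusted p = 0.0227), and of mTOR and TOP control 1 of 14, Eif4ebp2 (0.21, SE 0.0508, adjusted p = 0.0267, both edgeR). Both were lost without het 2 or WT 1 in turn. Rrs1 was lost too without het 1 (adjusted p = 0.0689) and Eif4ebp2 under a replicate block (0.0511, both edgeR). A sex term and leaving out KO 2, which each set KO 1 alone against the controls, also lost both. Rrs1 was then at 0.21 and Eif4ebp2 at 0.19 in either fit. In the RNA polymerase I, MYC, translation factor and mitochondrial lists 0 were called.

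Between GFP and E12.5 controls, of the assembly genes 6 rose and 12 of 30 fell. The counts of this and the following lists stand beside 31.1% of all genes called higher and 31.3% called lower. Utp20, Heatr1 and Dkc1, all of pre-rRNA processing, fell by 1.63, 1.49 and 1.27 on the log2 scale (SE 0.221, 0.216 and 0.118, adjusted p = 0.000914, 0.0012 and 0.000201, edgeR), and Rrp9 rose by 1.36 (SE 0.26, adjusted p = 0.00395). Polr1a, the catalytic subunit of RNA polymerase I, fell by 1.44 (SE 0.13, adjusted p = 0.000175), from a mean of 104 CPM at E12.5 to 31.8 CPM, while 3 of 14 genes of that list rose and 3 fell. Of 21 translation factors and TOP mRNAs 5 rose, with Eif3f at 1.25 (SE 0.129, adjusted p = 0.000292), and 7 fell, with Nap1l1 at -0.86 (SE 0.0701, adjusted p = 0.000117) and Npm1 at -0.76 (SE 0.0778, adjusted p = 0.000267, all edgeR). In the MYC family 8 of 9 rose, Mycl by 1.81 (SE 0.137, adjusted p = 9.75e-05) and the repressor Mnt by 1.70 (SE 0.0925, adjusted p = 3.79e-05). Of mTOR and TOP control 7 of 14 rose and 3 fell, among them Eif4ebp1, a brake on cap-dependent translation, by -1.74 (SE 0.201, adjusted p = 0.000437). Of the p53 list 2 of 12 rose and 4 fell, and of 77 mitochondrial ribosomal proteins 17 rose and 14 fell (median 0.05). Among ribosomal genes outside the rule, Rpl7l1 fell by 0.43 (SE 0.0822, adjusted p = 0.00397, edgeR).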

How the data were processed

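Per the labels, polyadenylated RNA was read as single-end 75-base reads from stranded libraries. Values are raw counts per gene as deposited, made by the authors with featureCounts 2.0.1 in reversely stranded mode over exons, per the file headers. The recorded command has no option for reads with several alignments, so their treatment follows that tool's default, under which they are not counted. A read that aligned equally well to gene and copy can thus be absent from both rows and from their sum. HISAT2 2.2.1, SAMtools 1.9 and GRCm38 are named in the submitters' processing notes. The annotation release is not given in the sources used here. Of 46078 identifiers, 45143 matched a symbol.

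Libraries were grouped by title. CPM are counts scaled to a library total of 1000000. Counts were tested with edgeR 4.0.16 in R 4.3.3 (robust quasi-likelihood fit, TMM, filterByExpr, two-sided, Benjamini-Hochberg over all genes tested, call at an adjusted p under 0.05), on the libraries of each comparison only. SE is the absolute log2 fold change divided by the square root of F. DESeq2 1.42.0 was an alternative. The fits were also run on simulated counts with the same dispersion for every gene, a setting simpler than these libraries, and no result here rests on that run. Windows, alignments and tracts were computed with Python 3.11.15 and Biopython 1.88 from 1 GENCODE M21 transcript a gene and RefSeq promoters, whose release can differ from the authors'. The members and lists were chosen with earlier results of these data known. Named were Rps2 and Rps2-ps13; in each comparison up to 6 called members per direction by fold change, or the 6 smallest p where fewer than 4 were called; the 5 highest and 3 lowest members per kilobase; paralogs; members tested nowhere; the 3 widest ranges within a sorted group; and up to 3 called genes per direction of each list, or the 2 smallest p. The copies Rps24-ps3, Rpl21-ps8, Gm15772 and Rpl14-ps1 were chosen after their values were seen.

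The labels do not say whether each library is its own embryo; p-values then measure only the spread between these samples, which may be technical. Chi-square per degree of freedom between libraries of a group was 2.60 to 94.4, above sampling noise in each pair. Floors of 3 counts cover counting error only. CD15-positive cells named in the series' design were not analysed here. Some items withheld for evaluation, among them 1 row of the heat map, are not reported here.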

Additional observations from a re-analysis of the deposited data

How the results depend on the processing

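Most values kept direction and call: among named genes 365 of 436 results with a library left out and 657 of 695 under other settings did, 61 and 21 lost a call, 4 and 7 gained one, and 6 and 10 reversed. Results called in neither fit count among those kept, so these shares do not show how firmly the calls themselves held. The cause of each change was not tested. In the gain comparison, 0 members were called lower with no count filter, with pseudogenes added to their genes (which removes the Rps2-ps13 row) and with a sex term; Rps2 became -0.46 with pseudogenes added and Rpl21 -0.08 with the sex term. Leaving out libraries gave 0 to 2 called lower. Over all genes, leaving out GFP 1 gave 294 higher and 121 lower, leaving out GFP 2 gave 0, and DESeq2 gave 46 and 35. In the loss comparison, 1 member was called higher with no count filter, DESeq2 or a length offset, and 1 lower with DESeq2 or pseudogenes added. The members' median was -0.06 and Rps2 was -0.02 with a sex term. KO 2 was the only E12.5 library female by sex-linked counts, so that fit set KO 1 alone against the controls. Rps2 was -0.00 with pseudogenes added, and Rps2-ps13 was 0.00 under the replicate block with length offset. Leaving out libraries gave 0 to 1 higher, 0 to 1 lower, a median of -0.06 to 0.01, Rps2 of -0.03 to 0.04 and Rps2-ps13 of -0.08 to 0.05.

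Between GFP and E12.5 controls, library totals gave 0 higher, 45 lower, a median of -0.39 and Rplp0 at -0.25. The median was -0.15 with median-of-ratios factors and with DESeq2 and -0.14 with no count filter, and Rplp0 was -0.00 with median-of-ratios factors and -0.01 with DESeq2. A length offset gave 4 higher. With the replicate number as a block, in which GFP 3 drops out because no E12.5 control shares its number, 43 were lower, the median was -0.29 and Rplp0 was -0.16; block and length offset together gave 4 higher, 44 lower, -0.29 and -0.14. Leaving out libraries gave 0 to 15 higher, 13 to 38 lower, a median of -0.26 to -0.01, Rps2 of -0.27 to 0.09 and Rplp0 of -0.13 to 0.16. Whether replicate numbers pair these samples was not settled. In the gain comparison same-numbered libraries correlated at 0.18, 0.00998 and 0.257. Gain 1 and gain 3 correlated best with the GFP control of their own number, and gain 2 with GFP 1 (0.115). Using heterozygotes as the only controls is the same fit as leaving out WT 1. Depth limits rows near the floor of 3 counts, 0.113 to 0.182 CPM.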

Other observations

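Rps3a1, a small-subunit gene outside the naming rule, was at 482 CPM in het 1 and at 318 to 342 CPM in the other 4 E12.5 libraries. In gain 3 it was at 160.1 CPM, against 247 to 273 CPM in the other 5 sorted libraries.

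Rpsa-ps10, a processed copy of the laminin-receptor gene Rpsa on chromosome 3, had 82.3 CPM in gain 1 and 10.5 to 22.7 CPM in the other 10 libraries.

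Gm11942, which shares 9.41% of the 75-base windows of Rplp1, had 24.6 to 48.4 CPM in the 6 sorted libraries and 0.666 to 0.975 CPM in the 5 E12.5 libraries. Rplp1 was called lower in the GFP controls than in the E12.5 controls. Whether the 2 rows exchanged reads was not tested.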
